A study of Caenorhabditis elegans with 9 samples.

Results

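Serpentine chemoreceptors are G protein-coupled receptors with several membrane-spanning helices, and Caenorhabditis elegans carries them as large gene families, the sr genes, many of them in tandem arrays on chromosome V. They are best known from the ciliated endings of the amphid and phasmid sensory neurons, where a receptor bound by an odorant, tastant or pheromone signals through a G protein alpha subunit, guanylyl cyclases and cGMP-gated or TRPV channels. Each receptor is usually made in few of the worm's neurons, so that in RNA of whole worms its transcript is diluted by every other tissue.

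Here the sr genes were followed in worms with a deletion in the gene of emerin (EMR-1) or of LEM-2, both inner nuclear membrane proteins. A further group had emr-1 RNAi on top of the lem-2 deletion. The study's list of serpentine genes held 386 sequence names, of which 384 had a row in the expression table. Of these, 98 loci averaged a coverage of 1 or more across the 9 libraries and are described here as the expressed receptor loci, against 19567 of all 43901 loci that reached the same mean. A further 258 listed loci stayed below that mean without being 0 everywhere, and 28 were silent, that is, at 0 in all 9 libraries. The mean coverage itself chose the 98 loci, so their levels are a description, and counts over them are no support for a change.

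Poly(A) RNA was sequenced from whole, non-gravid young adults grown for 53 h at 20 °C from 40000 synchronized larvae per culture on bacteria induced with 1 mM IPTG. There were 2 libraries of emr-1(RNAi) lem-2(tm1582), in which the lem-2 deletion strain BN19, according to the labels, ate bacteria making emr-1 double-stranded RNA. On bacteria with the empty L4440 plasmid there were 2 libraries of the emr-1(gk119) deletion strain BN20, 2 libraries of the lem-2(tm1582) strain BN19 and 3 libraries of wild-type worms (WT). All 4 groups were thus fed bacteria of an RNAi culture, and both deletion alleles are carried throughout the body. Nothing in the labels says that libraries of a group came from separate cultures, so p-values measure the spread between these libraries, which may be technical.

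The depleted genes were read first. For emr-1(gk119) the emr-1 coverage was 0.00 and 1.5, against 52.1, 44.6 and 60.5 in WT. Where the label gives emr-1(RNAi) lem-2(tm1582), emr-1 coverage was 134.8 and 73.5, against 44.5 and 44.4 in lem-2(tm1582). The emr-1 value thus did not fall under RNAi and does not bear out that label. Reads from the full-length emr-1 double-stranded RNA and from the worm's own emr-1 transcript cannot be told apart in these values, so they cannot decide on the knockdown. The study took the many dead embryos of such worms as evidence that the RNAi worked. The lem-2 coverage was 28.9 and 30.5 in those libraries and 54 and 53.3 in lem-2(tm1582), against 32.2, 29.3 and 39.0 in WT; being a median over exons, it does not check a deletion of part of the gene. The 2 libraries are called below the libraries labelled doubly depleted, and every direction drawn from them rests on that label. The study's methods name BN24 in 1 place for a pair of libraries that the labels give as BN19, and the labels were followed.

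These libraries also stood apart in the table as a whole: 41.6% and 41.3% of all rows were at 0 in the libraries labelled doubly depleted, against 44.8% to 46.9% in the other 7. Marker genes of several tissues differed from WT as well, some of them in the single mutants too. The summed coverage of 15 pan-neuronal markers was 648.9 and 629.9 in the libraries labelled doubly depleted, 413.9 to 524.6 in the single mutants and 473.5 to 517.3 in WT. That of 7 markers of amphid sheath and socket glia was 69.4 and 58.4 in the libraries labelled doubly depleted, 28.9 to 39.2 in the single mutants and 28.1 to 33.2 in WT. That of 6 germline markers was 188.0 and 203.0 in the libraries labelled doubly depleted, 347.3 to 581.5 in the single mutants and 617.0 to 667.2 in WT. In the libraries labelled doubly depleted, pharynx sums were 202.3 to 349.5, body wall muscle sums 1717.1 to 1931.8 and sperm sums 123.4 to 142.2. The single mutants had 132.1 to 191.3 for pharynx, 1095.4 to 1858.9 for body wall muscle and 91.9 to 206.4 for sperm. WT had 60.6 to 171.9, 802.3 to 1162.7 and 48.1 to 63.9 in the same order. Intestine was at 6287.7 to 6521.1 in the libraries labelled doubly depleted, against 8805.2 to 13502.1 in WT. In emr-1(gk119) intestine was lower still, at 3445.1 to 4144.5, and in lem-2(tm1582) it was at 6437.8 to 6761.0. Epidermis was at 879.0 to 952.3 in the libraries labelled doubly depleted, 912.4 to 1167.0 in the single mutants and 1159.3 to 1486.1 in WT. The sums for neurons, intestine and epidermis rest on few abundant genes. Of the pan-neuronal markers, 7 were called higher against WT in the libraries labelled doubly depleted, with a list median of 0.63. The most abundant of them, snb-1, was called lower, at 150.1 and 185.9 there, against 264.2, 217.9 and 273.6 in WT. Of the epidermal markers, col-19 was called lower against WT, while dpy-7, rol-6 and bli-1 were called higher, and the list median was 2.56 on the log2 scale. Of the intestinal markers, vit-2 and vit-6 were called lower, yet the list median was 0.35. No marker of these 8 lists was at 0 in any library. The part of tissue composition in the receptor values was not tested, and in whole worms fewer cells of a type and less RNA per cell cannot be told apart.

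Most of the receptor list was near the floor of the measurement. The 98 expressed loci made up 25.5% of the listed loci with a row, whereas 84.0% of protein-coding loci reached the same mean. Silent loci were 7.3% of the list and 2.6% of protein-coding loci. Of the 98, 77 had a mean coverage between 1 and 2, 15 between 2 and 5, 4 between 5 and 20, and 2 above 20. Coverage comes in small steps at this level, and 51.0% of the 882 values of the expressed loci were exactly 1, while 4.8% were 0. The minimum fell inside a run of ties: 13 loci sat at exactly 1.00, among them srd-17, srh-21 and srx-51, and 13 more at 0.944, among them srd-16, srw-69 and srv-24.

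**Figure D1:**
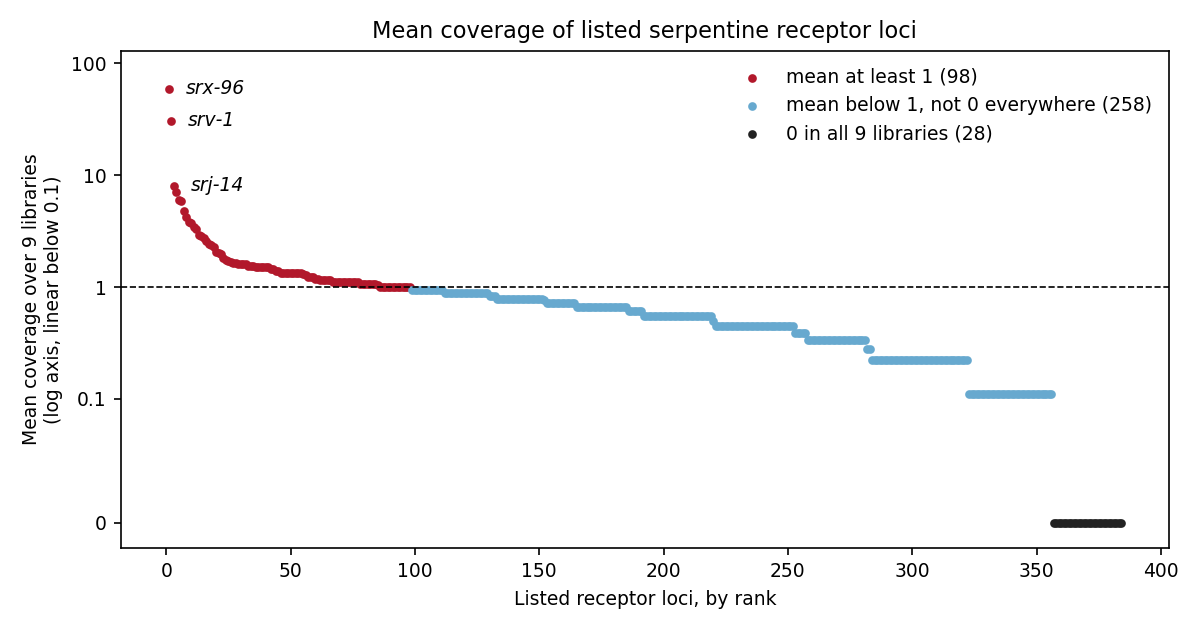
Mean coverage over 9 libraries (vertical, log axis that is linear below 0.1) of the 384 listed receptor loci with a row, ordered by rank (horizontal). Each point is a locus and the dashed line is the minimum of 1; 98 loci lie on or above it, 258 below it and 28 at 0, and only srx-96 and srv-1 are above 20.

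The families were unequally represented among the expressed loci. The srd family, of the Str superfamily, had 16 of its 26 listed loci expressed, sre had 9 of 23, sra had 9 of 18, srsx had 6 of 11 and srb had 4 of 6. The largest family of the list, srh, had 10 of 73, the sri family had 2 of 25, srbc had 2 of 20 and srj had 1 of 13. By superfamily, 24 of 58 Sra loci, 27 of 114 Srg loci and 29 of 137 Str loci were expressed. Chromosome V carried 52 of the 98, out of 238 listed there, chromosome II 23 of 74 and chromosome IV 14 of 43. All 98 were annotated as protein coding, and none of the 7 listed pseudogenes was expressed.

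Some expressed loci were neighbours. Joining members less than 20000 bp apart gave 10 runs with 23 of the 98 loci. The longest run, on chromosome II from 4524634 to 4540731 (WBcel235), held sra-35, sra-32, sra-33 and sra-36. Their coverage in the 9 libraries ran between 0.00 and 6.83, with sra-36 the highest of the run by mean. Exons of 28 of the 98 expressed loci overlapped exons of another gene that is not a piRNA, as did those of 60 of the other 286 listed loci. Since the library kit does not mark strand, reads of such overlapping genes cannot be told apart.

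srx-96, at chromosome V 13711360 to 13713019 (WBcel235), had the highest mean coverage of the list and the least stable one. It measured 37.6 and 1.00 in the libraries labelled doubly depleted, 1.00 and 117.6 in emr-1(gk119) worms, 52.1 and 130.8 in lem-2(tm1582) worms, and 65.6, 58.6 and 70.5 in WT. Replicates lay far apart in all groups but WT, whose 3 libraries were close. Its change in the libraries labelled doubly depleted against WT was -2.90 ± 1.76 (SE) on the log2 scale and did not pass the test (limma with Benjamini-Hochberg adjustment, adjusted p = 0.227). It shares 30 bp of exon with zipt-9 on the other strand, a gene at 13.1 to 65.4 in the same libraries.

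srv-1, at chromosome III 6850385 to 6853203, was the steadiest of the high loci. Coverage was 55.8 and 40.8 in the libraries labelled doubly depleted, 38.8 and 27.4 in emr-1(gk119) worms, 22.6 and 25.6 in lem-2(tm1582) worms, and 23.2, 20.7 and 21.6 in WT. Both libraries labelled doubly depleted were above all 7 others, and the emr-1(gk119) libraries were above both lem-2(tm1582) and WT. The next loci by mean were srj-14, sru-40, srd-7 and srsx-25, at mean coverages of 8.10, 7.15, 6.06 and 5.85. For sru-40 a single library stood far above the rest: WT 3 was at 21.5, while the other 8 libraries ran between 2.68 and 6.44.

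**Figure D2:**
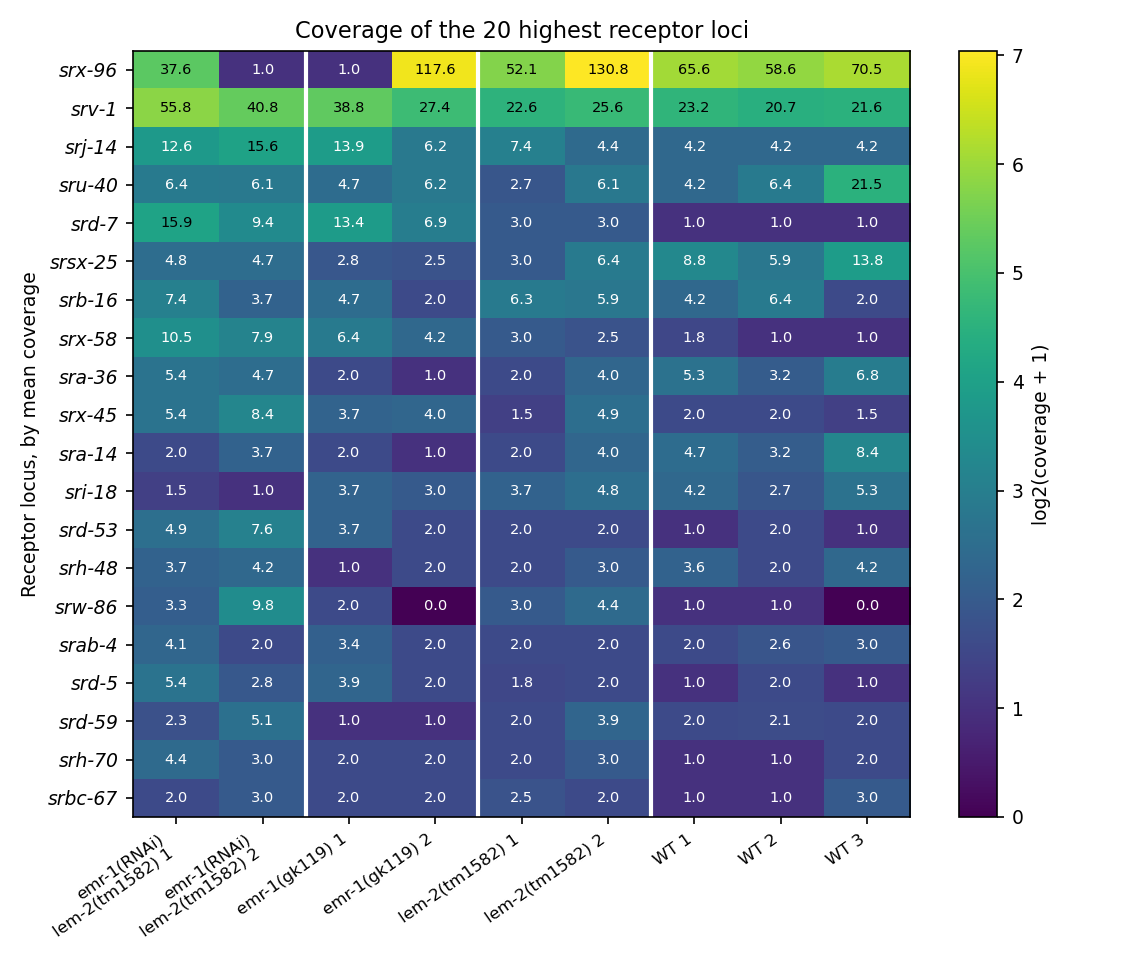
Coverage of the 20 receptor loci with the highest mean (rows, by mean) in each library (columns, grouped by genotype from emr-1(RNAi) lem-2(tm1582) to WT). Numbers are coverage and colour is log2(coverage + 1); srd-7 and srx-58 darken stepwise towards WT, and srx-96 drops to 1.0 in 1 library of each of 2 groups.

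Among the 20 highest loci, srb-16, sra-36, sra-14, srh-48, srd-59, srab-4 and srbc-67, like srx-96 and sru-40, were not called in any comparison. srb-16 was at 7.44 and 3.67 in the libraries labelled doubly depleted, 4.67 and 2.00 in emr-1(gk119) worms, 6.33 and 5.89 in lem-2(tm1582) worms, and 4.22, 6.44 and 2.00 in WT, and each of the depleted groups overlapped with WT. sra-36 was at 5.44 and 4.72 in the libraries labelled doubly depleted, 2.00 and 1.00 in emr-1(gk119) worms, 2.00 and 4.00 in lem-2(tm1582) worms, and 5.33, 3.17 and 6.83 in WT. sra-14 was at 2.00 and 3.67 in the libraries labelled doubly depleted, 2.00 and 1.00 in emr-1(gk119) worms, 2.00 and 4.00 in lem-2(tm1582) worms, and 4.67, 3.22 and 8.39 in WT. Both sra genes thus had their emr-1(gk119) values below all WT values. The changes of -1.27 ± 0.36 for sra-36 and -1.31 ± 0.42 for sra-14 missed the threshold (limma, adjusted p = 0.0515 and 0.0746).

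srh-48 was at 3.67 and 4.17 in the libraries labelled doubly depleted, 1.00 and 2.00 in emr-1(gk119) worms, 2.00 and 3.00 in lem-2(tm1582) worms, and 3.61, 2.00 and 4.17 in WT, so that the emr-1(gk119) values reached only the lowest of WT. srd-59 was at 2.33 and 5.06 in the libraries labelled doubly depleted, 1.00 and 1.00 in emr-1(gk119) worms, 2.00 and 3.94 in lem-2(tm1582) worms, and 2.00, 2.11 and 2.00 in WT. The values of srab-4 ran between 2.00 and 4.06 and those of srbc-67 between 1.00 and 3.00, with overlap of the groups. The direction of sru-40, srb-16, sra-36, srh-48, srab-4 and srbc-67 against WT in the libraries labelled doubly depleted turned under an alternative setting or a left-out library and is not stated.

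In several families no expressed locus reached a coverage of 5 in any library. All srg values of the 3 expressed loci lay between 1.00 and 2.50 and all srm values of the 3 loci between 1.00 and 2.00. The 9 sre loci ran between 0.00 and 3.67, the 5 srt loci between 0.00 and 3.72, and the 10 srh loci between 0.00 and 4.44. Both srab loci ran between 1.00 and 4.22, both srbc loci between 0.00 and 3.00 and both srz loci between 0.00 and 2.00. The only expressed sro gene, sro-1, averaged 1.97 in the libraries labelled doubly depleted, 2.82 in emr-1(gk119) worms, 1.25 in lem-2(tm1582) worms and 2.00 in WT, and the only expressed srxa gene, srxa-14, did not exceed 3.00. The ranges of these families overlapped one another.

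Receptors with a known place in the nervous system of C. elegans, named here for that place and after their values were seen, were at the low end. sra-6, known from the ASH and ASI sensory neurons, was at 1.00 in 8 libraries and at 1.5 in WT 1. sra-11, known from the AIY interneuron, was at 1.00 in both libraries labelled doubly depleted and in both emr-1(gk119) libraries, at 1.5 and 2.00 in lem-2(tm1582) and at 1.00 in all 3 WT libraries. srb-6, a receptor of the ASH and phasmid neurons with a role in avoidance, measured 1.5 and 2.50 in the libraries labelled doubly depleted, 1.00 and 1.00 in emr-1(gk119) worms, 1.00 and 0.00 in lem-2(tm1582) worms, and 1.00, 1.00 and 0.00 in WT. None of the 3 genes passed the test in any comparison. At this coverage a difference of 1 step is the whole signal.

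The first comparison sets lem-2 deletion worms under emr-1 RNAi, by the labels, against WT. Protein was not measured in these libraries, and the study states that RNAi works less well in worm neurons. Each locus was tested on log2(coverage + 1) with limma over all 19567 loci, and a locus is called at a Benjamini-Hochberg adjusted p under 0.05. In the libraries labelled doubly depleted against WT, 13 of the 98 expressed receptor loci were called higher and 1 lower. That is 14.3% of the 98, against 38.4% of all loci tested, of which 5164 (26.4%) were called higher and 2354 (12%) lower. The median change of the 98 was 0.29 on the log2 scale and that of all loci 0.35. Of the 98, 68 were higher, 24 lower and 6 equal, and of all loci 65.3% were higher. In 25 loci both libraries labelled doubly depleted were above all 3 WT libraries, and in 3 loci they were below, while 41.8% and 19.2% of all loci tested had these orders.

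The share called followed the level. Of the 77 loci with a mean between 1 and 2, 5.19% were called, against 11.2% of all loci at that level. Between 2 and 5, 6 of 15 were called higher and 1 lower, or 46.7%, against 27.3% of all loci at that level. Between 5 and 20, 2 of 4 were called, all higher, against 42.1% of all loci at that level. At 20 or more, 1 of 2 was called, against 51.2% of all loci there. Among the 20 highest loci 9 were called higher and 1 lower, whereas among the other 78 loci 4 were called higher and none lower. Of the values of those 78, 60.8% were exactly 1. Calls fell on srd (4 of 16 loci), sre (2 of 9), srx (2 of 10) and on 1 locus each of srv, srj, srsx, srh, srw and sri.

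**Figure D3:**
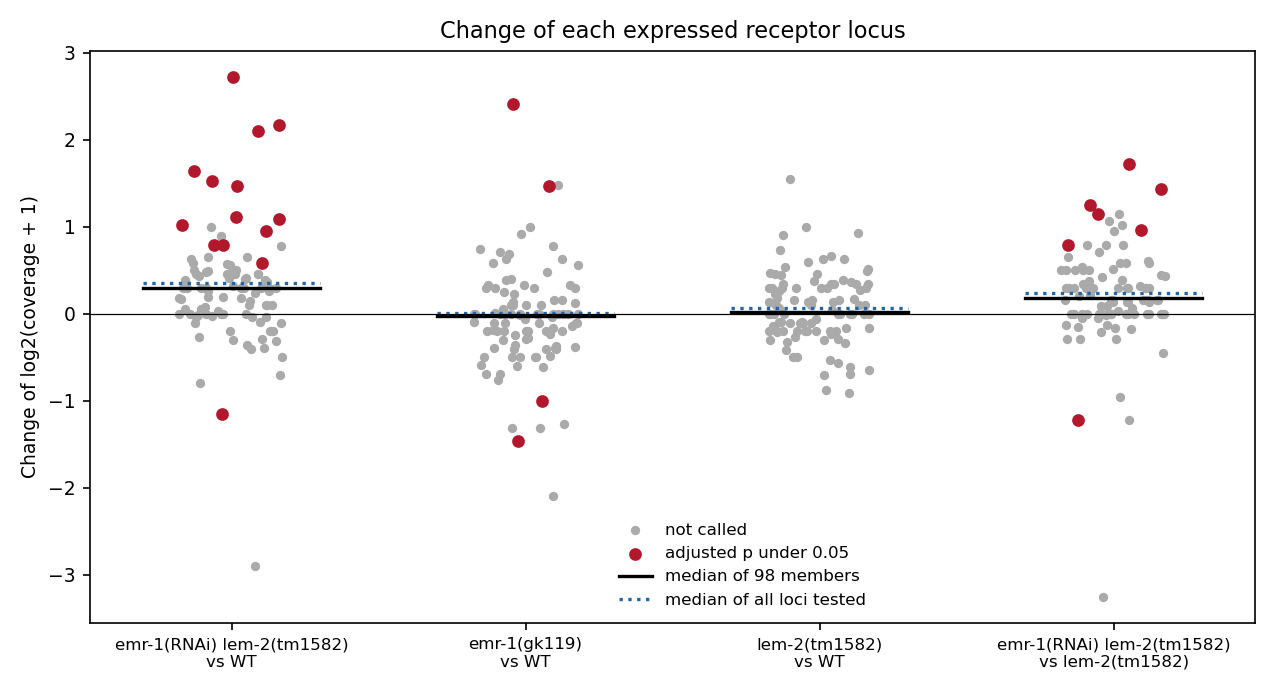
Change of log2(coverage + 1) (vertical) of each of the 98 expressed receptor loci in 4 comparisons (horizontal). Red points are called by limma at an adjusted p under 0.05; solid lines are medians of the 98 loci and dotted lines those of all 19567 loci, 0.29 and 0.35 in the first comparison.

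srd-7, at chromosome IV 10785090 to 10786831, showed the largest called change. It measured 15.9 and 9.39 in the libraries labelled doubly depleted, 13.4 and 6.86 in emr-1(gk119) worms, 3.00 and 3.00 in lem-2(tm1582) worms, and 1.00 in all 3 WT libraries. No group overlapped with WT, and the libraries labelled doubly depleted overlapped only with emr-1(gk119). The change against WT was 2.73 ± 0.32 in the libraries labelled doubly depleted (limma, adjusted p = 0.00138) and 2.41 ± 0.32 in emr-1(gk119) (limma, adjusted p = 0.0050). The change of 1.00 ± 0.32 in lem-2(tm1582) missed the threshold (limma, adjusted p = 0.195). The nearest coding gene on the left, the sugar transporter gene swt-3, was called higher as well in the libraries labelled doubly depleted, by 1.57 (limma, adjusted p = 0.0020), while pept-2 on the right was not called.

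srx-58, at chromosome V 15352676 to 15353985, had the same order of groups. Coverage was 10.5 and 7.94 in the libraries labelled doubly depleted, 6.44 and 4.17 in emr-1(gk119) worms, 3.00 and 2.50 in lem-2(tm1582) worms, and 1.83, 1.00 and 1.00 in WT, with no overlap between any of the 4 groups. The change was 2.17 ± 0.27 in the libraries labelled doubly depleted (limma, adjusted p = 0.0016) and 1.47 ± 0.27 in emr-1(gk119) (limma, adjusted p = 0.0136). Without emr-1(gk119) replicate 1 the second call was lost (limma, adjusted p = 0.0642). The gene 915 bp to its right on the same strand, C29F3.7, rose by 2.75 in the libraries labelled doubly depleted (limma, adjusted p = 0.0096) at a mean coverage of 124.0.

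srd-53, at chromosome I 7294038 to 7295794, measured 4.94 and 7.61 in the libraries labelled doubly depleted, 3.72 and 2.00 in emr-1(gk119) worms, 2.00 and 2.00 in lem-2(tm1582) worms, and 1.00, 2.00 and 1.00 in WT. Only the libraries labelled doubly depleted stood clear of WT, with a change of 1.64 ± 0.31 (limma, adjusted p = 0.0060). It shares 120 bp of exon with F13G3.12 on the same strand, which was called higher too. F13G3.12 was at 64.2 and 48.6 in those libraries, against 23.6, 15.7 and 11.2 in WT. The gene 1046 bp to the left of srd-53, ztf-2, rose by 2.25 (limma, adjusted p = 0.0024). srd-7, srx-58 and srd-53 were the 3 loci whose call in this comparison held in every alternative fit that tested them and without each library in turn. srx-58 and srd-53 were not tested at a minimum of 5.

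srv-1 rose by 1.10 ± 0.21 in the libraries labelled doubly depleted against WT (limma, adjusted p = 0.0065). It shares 103 bp with zak-1 on the other strand, which was not called. zak-1 was at 12.8 and 18.4 in those libraries, against 9.22, 8.52 and 11.4 in WT. The gene 1325 bp to the left of srv-1, dhhc-5, rose by 1.11 (limma, adjusted p = 0.0167). srj-14, the only expressed srj locus, was at 12.6 and 15.6 in the libraries labelled doubly depleted, 13.9 and 6.22 in emr-1(gk119) worms, 7.44 and 4.44 in lem-2(tm1582) worms, and 4.17, 4.22 and 4.22 in WT. Its change was 1.53 ± 0.34 (limma, adjusted p = 0.0117), and exc-13, 3647 bp to its left on the same strand, rose by 2.15 (limma, adjusted p = 0.0023). srx-45 was at 5.44 and 8.44 in the libraries labelled doubly depleted, against 2.00, 2.00 and 1.5 in WT, a change of 1.47 ± 0.37 (limma, adjusted p = 0.0185). It shares 70 bp with K01B6.3, which was called higher as well. C40H1.8, 8020 bp to the right of srx-45, rose by 2.515 (limma, adjusted p = 0.0028).

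srw-86 had a wide spread, with 3.28 and 9.83 in the libraries labelled doubly depleted, 2.00 and 0.00 in emr-1(gk119) worms, 3.00 and 4.44 in lem-2(tm1582) worms, and 1.00, 1.00 and 0.00 in WT. Its change against WT was 2.10 ± 0.60 (limma, adjusted p = 0.0279). srd-5 was at 5.44 and 2.83 in the libraries labelled doubly depleted, against 1.00, 2.00 and 1.00 in WT, and changed by 1.12 ± 0.34 (limma, adjusted p = 0.0345). srh-70 was at 4.44 and 3.00, against 1.00, 1.00 and 2.00 in WT, and changed by 1.03 ± 0.27 (limma, adjusted p = 0.0217). Each of these 3 genes kept its 2 libraries labelled doubly depleted above all WT libraries. C25F9.12, to the right of srw-86, was called higher too, while T19E7.6 and C55C3.4 beside srd-5 and ceh-99 beside srh-70 were not called.

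The smallest called values lay within a few steps of coverage. srsx-18 was at 3.67 and 3.22 in the libraries labelled doubly depleted and at 1.00 in every other library but WT 3, which had 2.00. srd-33 was at 2.00 and 3.00 there and at 1.00 in all 7 other libraries. sre-44 was at 3.67 and 2.00, against 1.00, 1.00 and 1.5 in WT, and sre-3 at 2.00 and 2.00, against 1.00 in all 3 WT libraries. The changes were 0.96, 0.79, 0.80 and 0.58, with limma adjusted p-values of 0.0147 for srsx-18, 0.0132 for srd-33, 0.0368 for sre-44 and 0.0442 for sre-3. On the other strand, srd-33 shares 44 bp of exon with T19H12.6, and sre-44 shares 30 bp with zip-3, a gene at 21.5 to 81.2. Neither T19H12.6 nor zip-3 was called, nor were C07D10.5 and bath-44 beside sre-3, srsx-17 beside srsx-18 and srd-32 beside srd-33. Of all loci tested, 26.4% were called higher.

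sri-18, at chromosome V 10257812 to 10260560, was the only locus called lower in this comparison. It measured 1.5 and 1.00 in the libraries labelled doubly depleted, 3.72 and 3.00 in emr-1(gk119) worms, 3.67 and 4.81 in lem-2(tm1582) worms, and 4.22, 2.67 and 5.33 in WT, so that only the libraries labelled doubly depleted lay below the rest. The change was -1.15 ± 0.28 (limma, adjusted p = 0.0168). The genes around it moved the other way: nhr-232, which shares 340 bp of exon with it, was at 24.0 and 16.1 in those libraries, against 7.33, 6.44 and 6.33 in WT, and ric-4, 570 bp away and a neuronal SNARE gene, rose by 1.87 (limma, adjusted p = 0.0091).

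Leaving out a library ended 10 of the 14 calls. Without a library labelled doubly depleted, which leaves 1 in that group, calls over all loci tested became fewer too. Without replicate 1 of the libraries labelled doubly depleted the calls of srv-1, srj-14, srsx-18, sri-18, srx-45, srh-70, srd-5, sre-44 and sre-3 were lost, and without replicate 2 those of srj-14, sri-18, srx-45, srw-86 and sre-3. Without WT 1 those of srh-70, srd-5, sre-44 and sre-3 were lost, without WT 2 those of srh-70, sre-44 and sre-3, and without WT 3 those of srw-86, srd-5 and sre-3. srd-5 also lost its call without either lem-2(tm1582) library. Repeating the quantile normalization over the rows of the table moved the median of all loci from 0.35 to -0.004 and left 6 of the 98 called higher and 3 lower, sri-18, srsx-25 and sra-14. Under it srd-33, srsx-18, srx-45, srh-70, srd-5, sre-44 and sre-3 were no longer called, and the median of the 98 turned to -0.09.

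**Figure D4:**
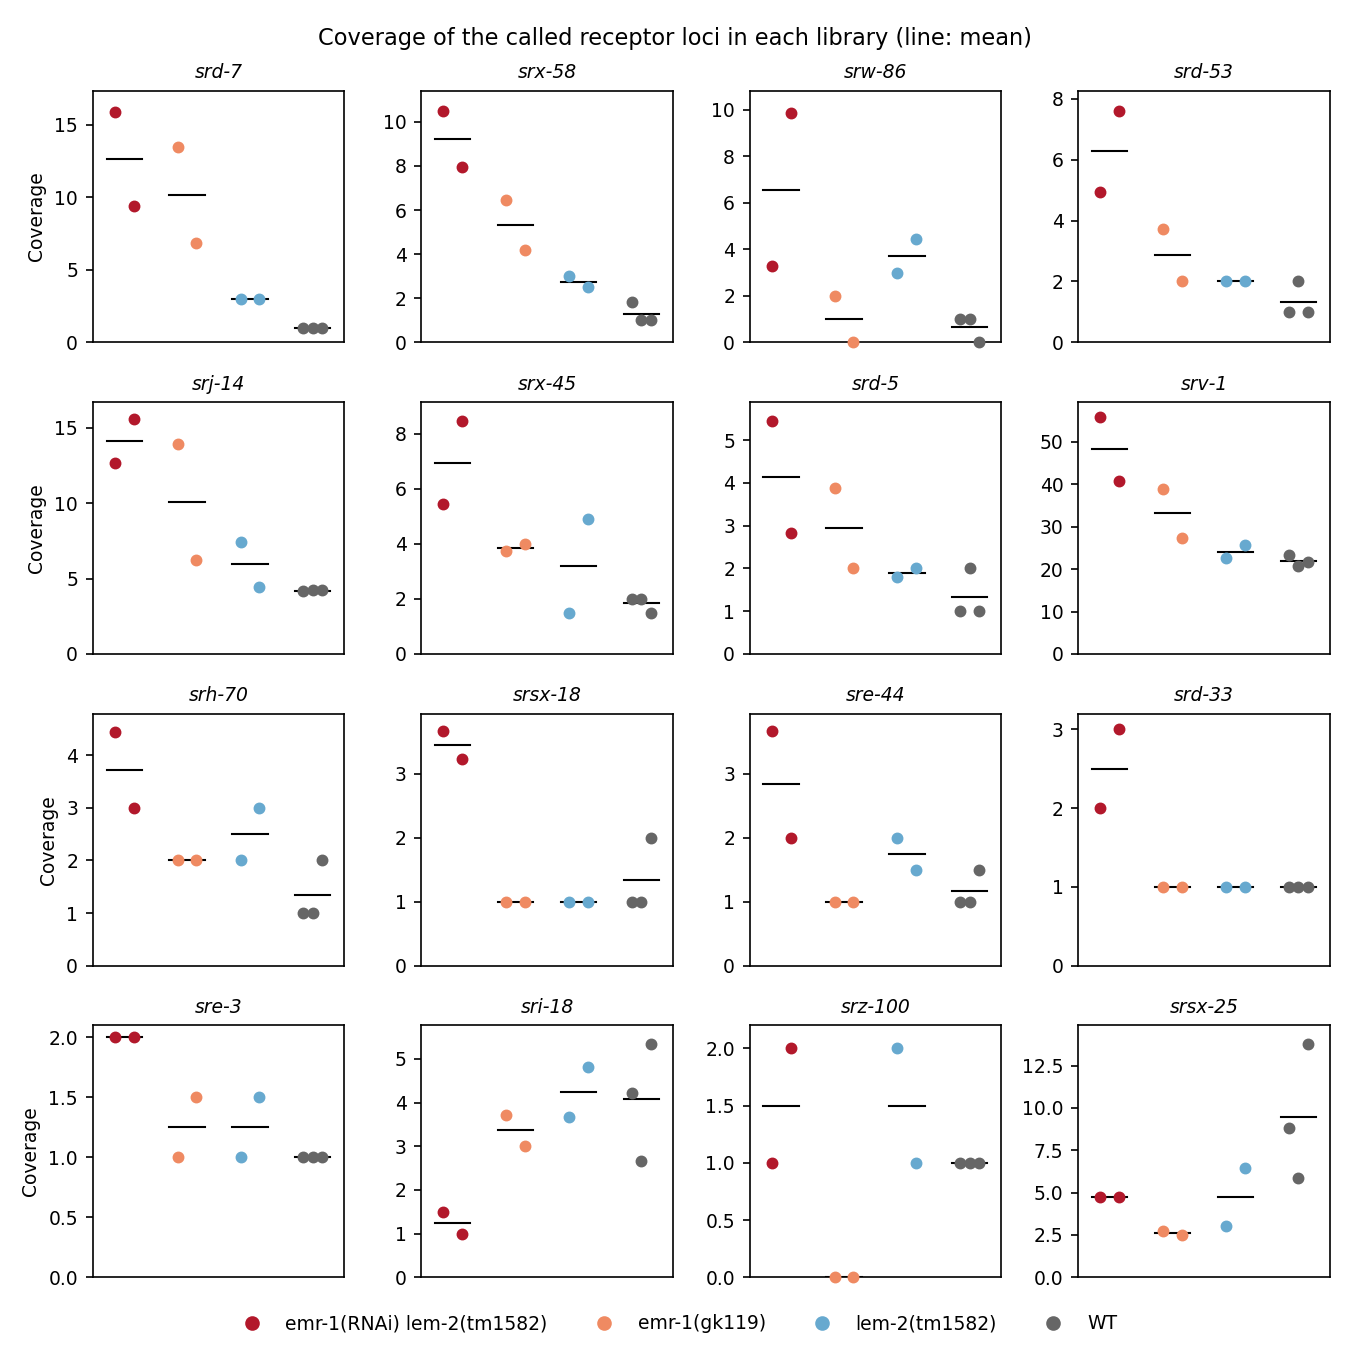
Coverage (vertical, each panel on its own scale from 0) in each library of the 16 receptor loci called in the libraries labelled doubly depleted or in emr-1(gk119) against WT. Points are libraries, lines are group means, and groups run from emr-1(RNAi) lem-2(tm1582) on the left to WT on the right. In 13 of the panels both points on the left lie above all WT points, and in sri-18 and srsx-25 both lie below them.

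Loss of emerin alone gave few calls. In emr-1(gk119) against WT, 2 receptor loci were called higher and 2 lower, 4.08% of the 98, against 16.6% of all loci tested, 10.3% higher and 6.27% lower. Both loci called higher, srd-7 and srx-58, are described above. The median of the 98 was -0.02 and that of all loci 0.01. srsx-25, at chromosome IV 13365169 to 13368435, was at 2.75 and 2.50 in emr-1(gk119), against 8.81, 5.89 and 13.8 in WT, a change of -1.46 ± 0.38 (limma, adjusted p = 0.0395). In the libraries labelled doubly depleted it was at 4.75 and 4.72, also below all 3 WT libraries, without a call. srsx-25 shares 160 bp of exon with agt-1 on the other strand, a gene at 39.4 to 56.2 over the 9 libraries. srz-100 was at 0.00 in both emr-1(gk119) libraries and at 1.00 in all 3 WT libraries, a change of -1.0 ± 0.25 (limma, adjusted p = 0.0335) that spans the lowest step of the scale. In 9 loci both emr-1(gk119) libraries were above all WT libraries and in 5 below, while 22.1% and 19.5% of all loci had these orders.

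Both loci called lower were fragile to the choice of libraries. Without either emr-1(gk119) library, or without WT 1 or WT 3, neither was called. srz-100 also lost its call without WT 2 and srsx-25 without either library labelled doubly depleted. Over all loci tested, calls also became fewer without either emr-1(gk119) library, which leaves 1 in that group. srz-100 would moreover have missed the minimum of 1 without the libraries labelled doubly depleted, or without those of lem-2(tm1582).

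Loss of LEM-2 alone gave no called receptor locus. In lem-2(tm1582) against WT, limma called 0 of the 98 loci, against 0.046% of all loci tested, 9 in number. At an unadjusted p under 0.05 there were 4 loci higher and none lower, srd-7, sra-11, srx-58 and srw-86, and 15.7% of all loci passed that level. srw-86 had the largest of these differences, with 3.00 and 4.44 in lem-2(tm1582), against 1.00, 1.00 and 0.00 in WT, a change of 1.56 ± 0.60 (limma, adjusted p = 0.269). The median of the 98 was 0.02 and that of all loci 0.06.

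By the labels, both groups of the next comparison are of the lem-2 deletion strain BN19, and the double-stranded RNA is the difference between groups. In the libraries labelled doubly depleted against lem-2(tm1582), 6 receptor loci were called higher and 1 lower, 7.14% of the 98, against 16.5% of all loci tested, 10.2% higher and 6.27% lower. These were srd-7 (1.73 ± 0.35), srx-58 (1.44 ± 0.30), srd-53 (1.25 ± 0.34), srsx-18 (1.15 ± 0.25), srv-1 (0.96 ± 0.23) and srd-33 (0.79 ± 0.20) upwards and sri-18 (-1.22 ± 0.31) downwards, at limma adjusted p-values between 0.0212 and 0.0443. All 7 had been called in the same direction against WT, a comparison that shares the libraries labelled doubly depleted. Each of the 7 calls was lost on leaving out at least 3 of the 9 libraries in turn. These always included both lem-2(tm1582) libraries and replicate 1 of those labelled doubly depleted. Leaving out any of these leaves 1 library in its group, and calls over all loci tested then became far fewer too. The losses thus do not set the receptor loci apart, and all 7 changes kept their direction. The median of the 98 was 0.18 and that of all loci 0.25.

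Whether the effect of losing emr-1 differed between worms with and without LEM-2 was tested as an interaction. Limma called 0 of the 98 loci, against 0.445% of all loci tested, 87 in number. At an unadjusted p under 0.05 there were 6 loci higher and 1 lower, and 19.0% of all loci passed that level. The lowest adjusted p was that of srsx-18 (limma, 0.115), at 3.67 and 3.22 in the libraries labelled doubly depleted and 1.00 in all 4 libraries of the single mutants. For srd-7 the interaction was -0.69 ± 0.47 and for srx-58 -0.03 ± 0.40 (limma, adjusted p = 0.483 and 0.982), so that no difference was detectable at this spread. In this test emr-1 was lost by deletion in worms with LEM-2 and was targeted by RNAi in worms without it.

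Below the minimum, the libraries labelled doubly depleted detected more of the receptor list. Of the 258 receptor loci with a mean below 1 and not 0 everywhere, 69.4% and 65.9% had coverage above 0 in the libraries labelled doubly depleted, 47.3% and 36.4% in emr-1(gk119) worms, 44.2% and 43.8% in lem-2(tm1582) worms, and 25.2%, 40.7% and 38% in WT. The 2348 other protein-coding loci of that level were detected at 64.2% and 60.2% in the libraries labelled doubly depleted, 47.7% and 34.0% in emr-1(gk119) worms, 37.8% and 40.0% in lem-2(tm1582) worms, and 32.9%, 37.9% and 35.2% in WT. The higher detection was thus seen in receptor loci and in other low loci alike. Over the whole list, 276 and 268 of 384 loci were above 0 in the libraries labelled doubly depleted, 216 and 178 in emr-1(gk119) worms, 208 and 206 in lem-2(tm1582) worms, and 159, 200 and 189 in WT. A coverage of 0 in this table does not show that a gene was not transcribed, since the depth of single libraries is unknown.

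**Figure D5:**
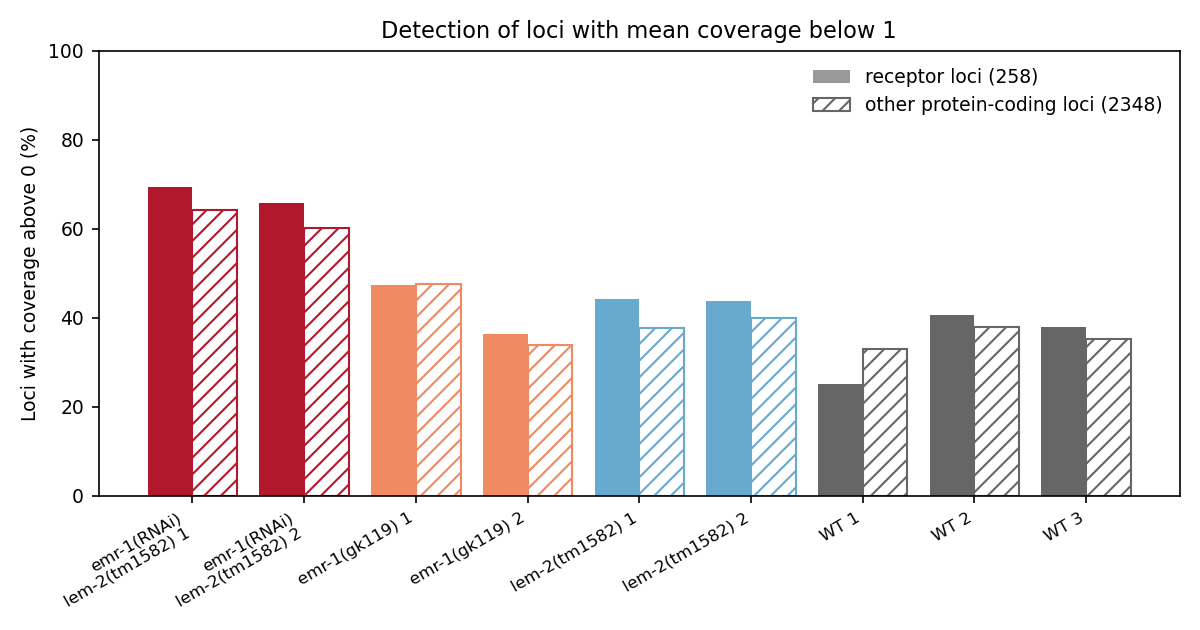
Share of loci with coverage above 0 (vertical, %) in each library (horizontal), for the 258 receptor loci (filled bars) and 2348 other protein-coding loci (hatched bars) with a mean coverage below 1 that were not 0 everywhere. The 2 libraries labelled doubly depleted, on the left, are the highest for both sets, at 69.4% and 65.9% for receptors and 64.2% and 60.2% for the others.

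Detection was also counted by group. Only srg-22, srbc-37 and nhr-290 were above 0 in both libraries labelled doubly depleted and at 0 in the other 7, each at exactly 1.00. Though listed, nhr-290 does not carry an sr symbol. Together they are 0.78% of the 384 listed loci, against 0.52% of all loci. In 23 listed loci both libraries labelled doubly depleted were above 0 and all WT libraries at 0, or 5.99% of the list, against 1.80% of all loci in the table, many of which are at 0 throughout. The opposite was seen in 0 listed loci, against 0.105% of all loci. In srh, the largest family, 47 and 48 of 73 loci were above 0 in the libraries labelled doubly depleted, against 19, 24 and 32 in WT. In sri it was 19 and 16 of 25, against 7, 10 and 9 in WT, and in sru 15 and 13 of 16, against 10, 7 and 9 in WT. The sra, srd, sre, srsx, srv and srx families also had both libraries labelled doubly depleted above all WT libraries. In sra, for example, it was 17 and 16 of 18, against 11, 13 and 12 in WT. Of all protein-coding loci, 92.5% and 91.9% were above 0 in those libraries, against 87.2%, 88.3% and 87.3% in WT. The remaining sr families, among them srt, srbc and srz, overlapped with WT. In srt it was 15 and 13 of 23, against 13, 13 and 11 in WT, and in srbc 8 and 14 of 20, against 4, 7 and 10. In srz it was 8 and 3 of 11, against 2, 5 and 5 in WT. Among the 98 expressed loci, 73 reached a mean of 1 in all 4 groups, 19 in 3 groups and 6 in 2. Without the libraries labelled doubly depleted 12 of the 98 would have fallen below the minimum, and without any other group 3 to 6.

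The genes that act with the receptors were read from 4 lists. Of 36 tested genes of chemosensory signal transduction, 10 were called higher and 0 lower in the libraries labelled doubly depleted against WT, or 27.8%, against 38.4% of all loci, with a median of 0.36 against 0.35. odr-3, the G protein alpha subunit of olfactory neurons, was at 9.81 and 6.94 there, against 2.50, 3.22 and 2.50 in WT, and rose by 1.31 ± 0.26 (limma, adjusted p = 0.0073). The alpha subunit genes gpa-2, gpa-3 and gpa-7 rose by 1.75, 1.26 and 1.38 (limma, adjusted p = 0.0101, 0.0089 and 0.0111). The cyclic nucleotide channel subunit cng-1 and the TRPV channel genes ocr-2 and ocr-4 rose by 0.84, 1.16 and 1.13 (limma, adjusted p = 0.0183, 0.0301 and 0.0311), and the regulator eat-16, the phosphodiesterase gene pde-1 and the calcium sensor gene ncs-1 by 0.85, 0.85 and 1.32 (limma, adjusted p = 0.0151, 0.0211 and 0.0482).

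The guanylyl cyclase gene odr-1 was at exactly 1.00 in all 9 libraries, and the cGMP-gated channel gene tax-4 was at 1.00 in 8 of them and at 1.5 in WT 2. In the list of receptor trafficking to cilia, 0 of 12 genes were called higher and 1 lower, or 8.33%, against 38.4% of all loci. The gene called lower was unc-101, a clathrin adaptor subunit, at 16.1 and 17.9 in the libraries labelled doubly depleted, against 33.1, 35.9 and 29.4 in WT, a change of -0.90 ± 0.23 (limma, adjusted p = 0.0192). odr-4, which brings receptors to the cilium, was at 67.9 and 74.4, against 82.3, 73.3 and 82.6 in WT, with no call.

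Of 26 genes of sensory cilia and intraflagellar transport, 6 were called higher and 0 lower, or 23.1%, against 38.4% of all loci, with a median of 0.31 against 0.35. These were che-13, dyf-1, daf-10, ift-20, kap-1 and klp-11, by 0.79 to 1.49. dyf-1 had the lowest adjusted p of them, at 6.44 and 5.44 in the libraries labelled doubly depleted, against 1.75, 1.75 and 1.00 in WT (limma, adjusted p = 0.0053). Of 14 tested transcription factor genes of sensory neurons, 4 were called higher and 0 lower, or 28.6%, against 38.4% of all loci. These were ceh-37, nsy-7, tbx-2 and unc-30, which is best known from GABA motor neurons, by 0.75 to 1.36. In lem-2(tm1582) none of the 4 lists had a call by limma. In emr-1(gk119) ceh-37 was called higher and daf-19, of the cilia list, lower.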

How the data were processed

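Whole-worm poly(A) RNA libraries were made by the authors with a kit that does not mark strand and aligned with TopHat to genome release WS231. The authors quantile-normalized the median coverage of exons and deposited, per transcript, the median over its exons, a coverage signal and not a count; the depth of each library is unknown, and their own test was not run here.

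Rows whose name equalled a listed sequence name with or without an isoform letter were averaged per locus. Gene names, positions and overlaps came from Ensembl WBcel235 release 115, and all 384 listed loci with a row matched. Loci averaging a coverage of 1 or more were tested on log2(coverage + 1) with limma 3.58.1 (R 4.3.3) over all 9 libraries with a mean-variance trend, Benjamini-Hochberg adjustment over 19567 loci and a threshold of 0.05. The fold on this scale understates the change of low genes. The script was tested on simulated data. No other per-sample column was present.

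Members and gene lists were chosen with earlier results of these data known. Named genes were the called loci, the 20 highest by mean, loci at the minimum, and, outside the list, emr-1, lem-2 and called genes of the 4 lists; neighbours and overlapping genes of called loci were added after their values were seen. With 2 libraries against 3 an exact permutation test could not go below 0.2, so none was used. Alternatives were another pseudocount (0.1 or 5), minimum (0 or 5), samples in the fit, no trend, a replicate block, repeated quantile normalization and each library left out.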

Additional observations from a re-analysis of the deposited data

How the results depend on the processing

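At a mean of at least 0.5 the expressed loci numbered 220 and the loci below it 136, at 2 they numbered 21 and at 5 they numbered 6, while matching by exact name or by the highest row gave 94 and 98. In the libraries labelled doubly depleted against WT (13 higher, 1 lower, median 0.29), a minimum of 5 left 3 higher and 0 lower of only 6 loci tested, repeated normalization gave 6 higher, 3 lower and a median of -0.09, pseudocounts of 0.1 and 5 gave medians of 0.466 and 0.109, and leaving out a library gave 9 to 14 higher, 0 to 1 lower and medians of 0.148 to 0.322. In emr-1(gk119) against WT (2 higher, 2 lower, median -0.02), the counts higher were 1 with a minimum of 5 or only the compared groups, 3 with pseudocount 5 and 1 to 4 on leaving out a library. The counts lower were 1 with pseudocount 5, a minimum of 5 or only the compared groups, 0 without a minimum, 3 with no trend, 4 after repeated normalization (median -0.19) and 0 to 2 on leaving out a library (medians -0.107 to 0.00). In lem-2(tm1582) against WT (0 calls in all settings, median 0.02), the median was 0.242 with a minimum of 5 and -0.052 after repeated normalization. Against lem-2(tm1582) (6 higher, 1 lower, median 0.18), the libraries labelled doubly depleted had 2 higher with a minimum of 5, 3 with only the compared groups or repeated normalization and 0 to 8 on leaving out a library. The counts lower were 0 without a minimum, with a minimum of 5 or with only the compared groups, 2 after repeated normalization and 0 to 1 on leaving out a library, and medians were 0.276 and 0.066 with pseudocounts of 0.1 and 5, 0.737 with a minimum of 5, -0.093 after repeated normalization and 0.184 to 0.292 on leaving out a library. The interaction had 0 calls in all settings run, with medians of 0.429, 0.074 and 0.015 with pseudocounts of 0.1 and 5 and repeated normalization and 0.193 to 0.294 on leaving out a library. The minimum of 5 tests fewer loci by construction; the cause of the other shifts was not tested.

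Same-numbered libraries did not deviate together (correlations of -0.074 to 0.031), so the numbers do not pair them. With the replicate number as a block, 10 loci were called higher and 0 lower in the libraries labelled doubly depleted against WT, 2 and 1 in emr-1(gk119) against WT, and 3 and 0 against lem-2(tm1582).

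Among 35 gene changes under 570 alternatives, 443 kept direction and side of the threshold, 113 lost the call, 3 gained one and 11 changed sign, none of them a called gene. Against WT in the libraries labelled doubly depleted, sru-40 (-0.39) had 0.226 with the block and -0.828 to 0.226 on leaving out a library, the 0.226 without WT 3. After repeated normalization srb-16 had -0.186, sra-36 -0.433, srh-48 -0.28, srab-4 -0.437 and srbc-67 -0.009. On leaving out a library srb-16 had -0.066 to 0.789 and srab-4 -0.228 to 0.525, both lowest without replicate 1 of the libraries labelled doubly depleted, and sra-36 had -0.214 to 0.241, at -0.214 without WT 2 and -0.047 without that replicate 1.

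Limits: values of 1 or 0 make up most of the list, so single steps of coverage decide calls, and the unknown depth gives no interval for a 0.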
